A study of Mus musculus with 3 samples.

Results

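The genes followed here encode subunits of the receptors for glutamate and for GABA, read from the open chromatin of single nuclei of mouse embryos. The members were the autosomal protein-coding genes of GENCODE vM21 (build mm10) whose symbols name a subunit of an ionotropic glutamate receptor (Gria, Grin and Grik), a metabotropic glutamate receptor (Grm) or a GABA-A receptor (Gabr), and whose counted span, the gene body plus 2 kb upstream, was at most 500 kb. They numbered 34 of the 21593 genes counted and 34 of 43 such receptor symbols. Grm8, Grm7, Gabrg3, Grm5 and Grik2 had longer spans and Gria3, Gabre, Gabra3 and Gabrq lie on the X chromosome, so these 9 were not members. By family there were 3 AMPA, 7 NMDA, 4 kainate, 5 metabotropic and 15 GABA-A receptor genes.

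The samples were 3 libraries of wild-type C57BL/6JRj embryos, 1 for each of the embryonic stages E15.5, E13.5 and E12.5, and the labels name no transgene or treatment in any of them. Nuclei were taken from thick frozen sections of embryos, stained with the DNA dye 7-AAD, sorted and assayed by single-nucleus ATAC-seq (snATAC-seq), in which a transposase cuts accessible DNA and each sequenced fragment spans the stretch between its cuts. Nothing in the labels says how many embryos a library holds, and with 1 library per stage the stage and the library cannot be told apart. The deposited cell table gave each nucleus a cluster number, and 1450 of its 1879 nuclei were used, the 429 of clusters 2 and 4 being left out by the rule.

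AMPA receptors (Gria) carry the fast excitatory current at glutamate synapses, NMDA receptors (Grin) admit calcium when glutamate binds to an already depolarised membrane, and kainate receptors (Grik) modulate release and excitability. Metabotropic receptors (Grm) act through G proteins, while GABA-A receptors (Gabr) are chloride channels that mediate most fast inhibition in the mature brain and are often excitatory in embryonic neurons. The genes are best known from neurons, and many of them are long.

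Clusters were named from lists of marker genes, counting those with gene bodies raised 1.5-fold or more over the remaining clusters. Cluster 0 (8 of 8 neuron and 6 of 7 inhibitory neuron markers, with Slc32a1 and Gad2 among its leading genes) was called inhibitory neuron-like, and cluster 6 (6 of 8 neuron and 7 of 7 excitatory neuron markers, led by Neurod6 and Neurod2) excitatory neuron-like, although 4 of 7 neural progenitor markers were raised there too. Cluster 9 was called neural progenitor-like (7 of 7), although 3 of 7 excitatory neuron markers (Neurod1, Tbr1 and Eomes) and 1 of 8 neuron markers (Elavl4) were raised there and Neurog2 was among its leading genes. Cluster 1 was called mesenchyme-like (7 of 7), cluster 5 erythroid-like (7 of 7) and cluster 10 muscle-like (7 of 7). Clusters 3, 7 and 8 stayed unnamed: cluster 3 had 7 of 7 mesenchyme markers but was led by olfactory and vomeronasal receptor genes, and clusters 7 and 8 each mixed markers of several cell types. Since clusters and levels rest on the same nuclei, each test here describes how far a difference repeated over the libraries and is not independent evidence for it. In pooled nuclei, fewer open cells and less open chromatin per cell cannot be told apart.

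Fragments were summed per cluster and library, and 23 sums of at least 10 nuclei from 9 clusters entered the comparisons. The neuron-like clusters gave 5 sums (cluster 0 in all 3 libraries, cluster 6 at E13.5 and E15.5), the non-neural clusters 1, 5 and 10 gave 8 and cluster 9 gave 3. Levels are counts per 1000000 (CPM) of the fragments over all gene bodies, or at all promoters, of the same sum. A promoter reached from 1000 bp upstream to 100 bp downstream of the annotated start. The nuclei used held 65367015 fragments at E13.5, 38533051 at E15.5 and 8332004 at E12.5, and 1 barcode sequence occurred in more than 1 library. Depth differed widely between sums, from 344651 to 8625628 gene fragments, and all E12.5 sums of the named clusters came from 10 or 11 nuclei. At promoters the shallowest sums could not show a closed gene: a count of 0, which allows up to 3 fragments, left up to 40.4 CPM in cluster 1 at E12.5, 40.99 CPM in cluster 5 at E12.5 and 30.01 CPM in cluster 5 at E15.5. Such limits and all intervals in the text cover counting error only.

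Summed over the 34 genes, receptor gene bodies took more of the fragments in neuron-like than in non-neural nuclei. The 5 neuron-like sums held 3630 to 4692 CPM over the members together (median 4422), against 1868 to 2780 CPM (median 2445) in the 8 non-neural sums, and the groups did not overlap. The progenitor-like sums, at 3052 to 3634 CPM, lay above all non-neural sums and reached the lowest neuron-like one. Cluster 3 reached 3561 to 3928 CPM and clusters 7 and 8 1988 to 2519 CPM. Within the non-neural group the erythroid-like sums (1868 to 2382 CPM) and the muscle-like ones (2274 to 2509 CPM) overlapped, and both lay below the mesenchyme-like ones (2666 to 2780 CPM). At the promoters the members together held 796 to 1113 CPM in neuron-like sums, 678 to 835 CPM in progenitor-like sums and 170 to 602 CPM in non-neural sums. Cluster 3 held 693 to 936 CPM there, overlapping the neuron-like range, and clusters 7 and 8 held 290 to 545 CPM.

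Per kb of span, the median member carried 0.899 to 1.14 times the genome average of fragments in neuron-like sums and 0.379 to 0.494 times in erythroid-like sums, with the other non-neural sums at 0.611 to 0.735. The members are long, with a median counted span of 97.3 kb against 19.1 kb over all genes counted, and 35.3% of them against 3.59% of all genes span at least 200 kb. The share of fragments that fell on promoters also differed between the groups. It was 7.77% to 12.8% in the neuron-like sums, 9.69% to 19.7% in the non-neural sums and 5.99% to 7.44% in cluster 3, and its part in the body values was not tested.

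Of the 34 receptor gene bodies, 23 were higher in the neuron-like than in the non-neural clusters and none was lower (edgeR's quasi-likelihood test, adjusted p under 0.05), where 10.4% of the 19196 genes tested were higher and 7.38% lower. The median log2 fold change over the members was 0.78, against -0.01 over all genes. For 12 members every neuron-like sum lay above every non-neural sum, which held for 2.37% of all genes tested. The unnamed clusters 3, 7 and 8 had no part in this. Their highest sum passed the lowest neuron-like one in some of these members, such as Gria1, Gria4 and Grm4. In others, such as Gria2, Grik3, Gabra2 and Grik5, it did not. Long genes were called higher more often in general: among other genes, 6.94% of those under 50 kb, 16.5% of those of 50 to 200 kb and 40.4% of those of 200 to 500 kb were higher, and among the members 2 of 11, 9 of 11 and 12 of 12. Leaving out the E13.5 library reduced the 23 called members to 15, and using the mesenchyme-like cluster 1 as the sole reference to 13.

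At the promoters, 23 of the 34 members passed the filter on low counts and 16 of these were higher in the neuron-like clusters, none lower, against 13.2% higher and 9.41% lower of 14026 promoters tested. Among the 11 that did not pass were Grin2d, Grm6, Gabra6, Gabrp, Gabrr1, Gabrr2 and Gabrr3. The median log2 fold change of the 23 was 1.87 against 0.02 over all promoters tested, but a promoter that passed only through the group in which it was high had to differ, so the count and the median describe the tested members and not all 34. Without the filter 18 of 34 were higher, without the E13.5 library 5, without the E15.5 library 9, and against cluster 1 alone 8. In 6 of the 23 tested members no neuron-like promoter sum overlapped a non-neural one, which held for 2.52% of the 14026 promoters tested. A count of 0 in a shallow non-neural sum entered this comparison as 0 CPM, although it allows higher levels. Counting errors were large here: the members together had 96 promoter fragments in the E12.5 sum of cluster 0.

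**Figure D1:**
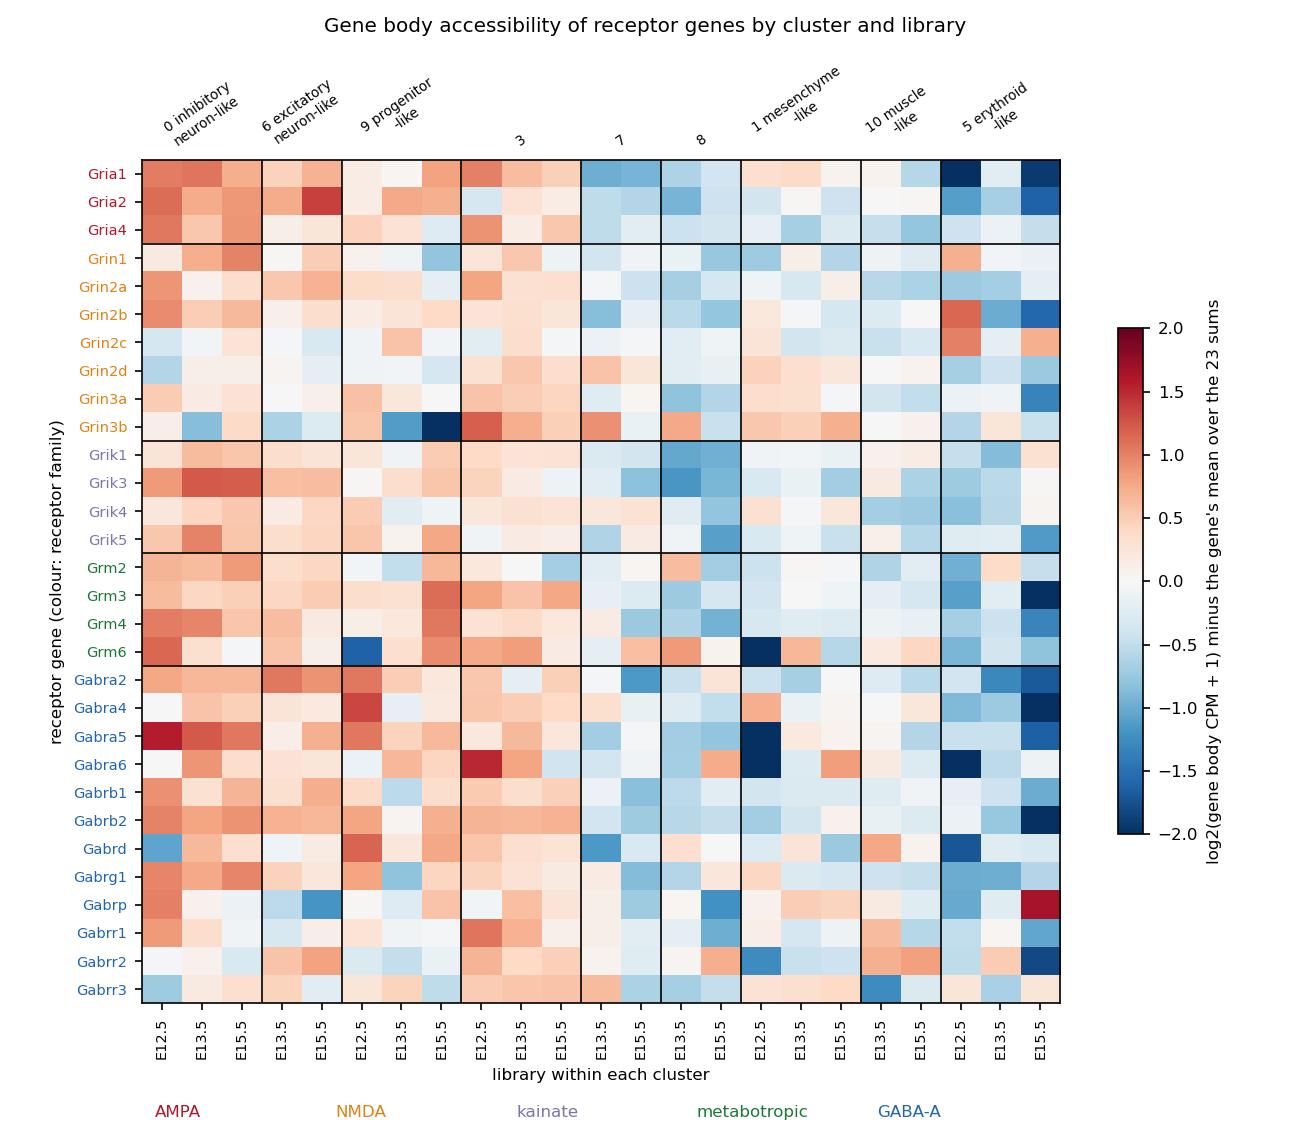
Gene body level of the receptor genes reported by name (rows, coloured by family) in each of the 23 sums (columns, libraries within clusters), as log2(CPM + 1) minus the gene's mean over the sums, with colours ending at -2 and 2. The columns of clusters 0 and 6 are mostly red and those of clusters 7, 8, 1, 10 and 5 mostly blue. Cluster 3 is red for many members. Grin2c, Grin2d, Grin3b, Gabrp and Gabrr3 are among the members that do not follow this pattern.

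All 3 AMPA receptor genes were higher in the neuron-like clusters at both gene bodies and promoters. Gria2 encodes the subunit that makes the channel nearly impermeable to calcium. Its body (mm10 chr3:80681450-80802835, minus strand) held 98.9, 76.7 and 82.9 CPM in cluster 0 at E12.5, then E13.5, then E15.5, 75.9 and 118 CPM in cluster 6 at E13.5 and E15.5, and 14.1 to 46.0 CPM (median 34.2) in the 8 non-neural sums. All neuron-like sums of Gria2 exceeded all non-neural ones, with a log2 fold change of 1.38 ± 0.17 (SE; edgeR, adjusted p = 3.5e-07). At the Gria2 promoter the neuron-like sums held 63.6, 75.8, 61.0, 57.0 and 92.6 CPM and the non-neural sums 0 to 22.0 CPM (median 11.5), a log2 fold change of 2.66 ± 0.35 (edgeR, adjusted p = 2.2e-11) with no overlap.

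Gria1 encodes a subunit central to activity-dependent receptor insertion. Over its body (chr11:57011387-57330244) the values were 266, 276 and 218 CPM in cluster 0, 181 and 212 CPM in cluster 6 and 25.7 to 171 CPM (median 124) in the non-neural sums, again without overlap (log2 fold change 1.07 ± 0.19, edgeR adjusted p = 9.4e-05). With the mesenchyme-like cluster 1 as the sole reference the Gria1 body difference was 0.53 and no longer passed. The Gria1 promoter rested on few fragments: 42.4, 15.46 and 16.0 CPM in cluster 0, 11.7 and 10.0 CPM in cluster 6 and 0 to 4.59 CPM in the non-neural sums (log2 fold change 2.35 ± 0.69, edgeR adjusted p = 0.0054). Without the E15.5 library, or against cluster 1 alone, the Gria1 promoter was no longer called, at log2 fold changes of 3.24 and 2.06.

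Gria4, which encodes a fast-gating subunit, had a promoter level of 63.6, 54.1 and 34.1 CPM in cluster 0, 42.4 and 10.0 CPM in cluster 6 and 0 to 40.4 CPM (median 11.1) in the non-neural sums. These ranges overlapped, and the log2 fold change was 2.08 ± 0.43 (edgeR, adjusted p = 4.5e-05). Against cluster 1 alone, or without the E13.5 library, the Gria4 promoter was not called (log2 fold change 0.82 and 2.69). Its body difference was 0.94 ± 0.15 (edgeR, adjusted p = 1.1e-05), with all neuron-like sums above all non-neural ones.

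The NMDA receptor genes were split. Of 7 bodies, Grin1 (the obligatory subunit), Grin2a and Grin2b (the glutamate-binding subunits of forebrain receptors) were higher, by log2 fold changes of 0.64 ± 0.19, 0.96 ± 0.15 and 0.63 ± 0.21 (edgeR, adjusted p = 0.018, 1.2e-05 and 0.027), and Grin2c, Grin2d, Grin3a and Grin3b did not pass. Grin1, Grin2a and Grin2b each overlapped between the groups. For Grin2b the neuron-like sums held 272 to 487 CPM and the non-neural sums 84.6 to 563 CPM (median 228). The highest of all these Grin2b sums was that of the erythroid-like cluster 5 at E12.5. Grin2c and Grin2d were at 0.03 ± 0.21 and 0.03 ± 0.14 and Grin3b at -0.43 ± 0.30. Neighbouring genes share part of these counts, since 22.0% of the Grin2d span and 44.0% of the Grin3b span are overlapped by other genes.

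Grin2b had the largest NMDA promoter difference in the main settings. Its promoter held 21.2, 44.8 and 49.4 CPM in cluster 0, 62.9 and 47.5 CPM in cluster 6 and 0 to 30.3 CPM (median 7.76) in the non-neural sums, a log2 fold change of 2.55 ± 0.40 (edgeR, adjusted p = 2.6e-08). The ranges overlapped through the E12.5 sum of cluster 0, which had 2 fragments there, and against cluster 1 alone the Grin2b difference of 0.89 was not called. For Grin2a the promoter values were 10.6, 21.6 and 26.1 CPM in cluster 0, 27.8 and 12.51 CPM in cluster 6 and 0 to 13.7 CPM (median 4.41) in the non-neural sums, a log2 fold change of 2.26 ± 0.56 (edgeR, adjusted p = 8.0e-04). Without the E15.5 library the Grin2a promoter was not called, at a log2 fold change of 1.997 (edgeR, adjusted p = 0.080). Grin1 and Grin3a promoters were higher as well (1.49 ± 0.41 and 1.12 ± 0.42). Grin2c (0.19 ± 0.58) and Grin3b (-0.78 ± 0.50) did not pass.

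All 4 kainate receptor bodies were called higher in the neuron-like clusters, as were 3 of 4 promoters, 1 of which (Grik4) was not higher by its group medians. Grik3, a low-affinity subunit, stood out in both readouts. Its body (chr4:125490700-125714173, plus strand) held 352, 454 and 448 CPM in cluster 0, 294 and 298 CPM in cluster 6 and 118 to 220 CPM (median 145) in the non-neural sums, a log2 fold change of 1.195 ± 0.16 (edgeR, adjusted p = 1.1e-06). Its promoter held 63.6, 97.4 and 64.6 CPM in cluster 0, 59.9 and 70.1 CPM in cluster 6 and 0 to 51.2 CPM (median 13.2) in the non-neural sums (log2 fold change 1.996 ± 0.31, edgeR adjusted p = 3.6e-08). Neither readout of Grik3 overlapped between the groups. In contrast, the promoters of Grik4 and Grik5, which encode high-affinity partner subunits, were open in most clusters: Grik5 had 74.2 to 102 CPM in neuron-like and 20.01 to 107 CPM in non-neural sums (log2 fold change 0.50 ± 0.20, edgeR adjusted p = 0.056). Grik4 had 70.1 to 90.6 CPM (median 74.2) in neuron-like and 0 to 97.2 CPM (median 79.8) in non-neural sums, with a fitted log2 fold change of 0.69 ± 0.21 (edgeR adjusted p = 0.0070). By cluster its promoter level was 78.8 CPM in cluster 0 and 83.0 CPM in cluster 6, below the 88.5 CPM of cluster 1 and the 84.7 CPM of cluster 10, and far above the 15.2 CPM of the erythroid-like cluster 5.

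Among the metabotropic receptor genes 4 of 5 bodies and 2 of 3 tested promoters were higher. Grm4, a presynaptic receptor that lowers cyclic AMP, held 317, 309 and 228 CPM over its body (chr17:27422387-27521403) in cluster 0, 239 and 178 CPM in cluster 6 and 62.1 to 145 CPM (median 127) in the non-neural sums, without overlap (log2 fold change 1.02 ± 0.17, edgeR adjusted p = 2.1e-05). The Grm4 promoter was weak, at 10.6, 26.3 and 14.5 CPM in cluster 0, 8.77 and 5.005 CPM in cluster 6 and 0 to 4.54 CPM in the non-neural sums (log2 fold change 2.05 ± 0.68, edgeR adjusted p = 0.016). That call was lost without the E15.5 library, without the deepest nuclei and against the mean of 6 clusters (log2 fold changes 1.85, 2.07 and 0.96). The Grm2 and Grm3 bodies were also higher (0.76 ± 0.27 and 0.83 ± 0.18), and Grm6, known from retinal bipolar cells, was at 0.57 ± 0.35 and did not pass.

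Of 15 GABA-A receptor bodies, 9 were higher, among them Gabra2, Gabra4, Gabra5, Gabrb1, Gabrb2 and Gabrg1, which encode alpha, beta and gamma subunits of the common receptor. The 6 that did not pass were Gabra6, known from cerebellar granule cells, Gabrd, Gabrp and the rho subunits Gabrr1, Gabrr2 and Gabrr3, known from the retina. Their log2 fold changes ran from -0.51 ± 0.33 for Gabrp to 0.67 ± 0.48 for Gabra6, and none was called lower.

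Gabra2 had the largest body difference of all members. It held 81.9, 75.6 and 76.0 CPM in cluster 0, 99.7 and 88.8 CPM in cluster 6 and 14.1 to 47.3 CPM (median 33.5) in the non-neural sums, a log2 fold change of 1.49 ± 0.19 (edgeR, adjusted p = 5.2e-07). At its promoter the values were 53.0, 71.1 and 58.1 CPM in cluster 0, 74.6 and 42.5 CPM in cluster 6 and 0 to 20.2 CPM (median 13.6) in the non-neural sums (log2 fold change 2.86 ± 0.37, edgeR adjusted p = 1.4e-11). Neither readout of Gabra2 overlapped between the groups, and both neuron-like clusters were high.

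Gabrg1, the neighbour of Gabra2 on chromosome 5, had the largest promoter difference in the main settings. Under the alternative settings this difference ran from 1.91 to 4.19 and that of Gria2 from 2.04 to 3.47, so the ranking did not hold in all. The Gabrg1 promoter held 63.6, 46.4 and 47.2 CPM in cluster 0 and 23.4 and 25.02 CPM in cluster 6. The non-neural sums held 0 to 14.7 CPM (median 2.81), without overlap (log2 fold change 2.93 ± 0.51, edgeR adjusted p = 5.6e-07). Over its body the values were 43.3, 37.1 and 43.3 CPM, then 30.1 and 25.5 CPM, against 10.3 to 29.0 CPM (median 15.6), and the ranges overlapped through cluster 6 at E15.5. The body difference of 1.201 ± 0.24 (edgeR, adjusted p = 3.2e-04) was not called without the E13.5 library (1.12) or against cluster 1 alone (0.90).

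Gabrb2, a beta subunit, did not overlap between the groups, with 124, 107 and 116 CPM in cluster 0, 101 and 98.8 CPM in cluster 6 and 5.64 to 65.5 CPM (median 49.1) in the non-neural sums (1.23 ± 0.18, edgeR adjusted p = 3.7e-06).

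Another of the members overlaps 90.4% of the counted Gabra5 span, so these fragments count for both members and their body calls are not separate. Gabra5, an extrasynaptic alpha subunit, held 86.5, 67.6 and 60.1 CPM in cluster 0, 31.2 and 47.2 CPM in cluster 6 and 2.90 to 32.8 CPM (median 20.6) in the non-neural sums, with overlap through cluster 6 at E13.5 (1.18 ± 0.22, edgeR adjusted p = 2.0e-04). The Gabra5 promoter held 31.8, 37.1 and 18.2 CPM in cluster 0, 16.1 and 15.01 CPM in cluster 6 and 0 to 20.01 CPM (median 2.37) in the non-neural sums (1.9999 ± 0.59, edgeR adjusted p = 0.0058), and was not called against cluster 1 alone (1.93).

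**Figure D2:**
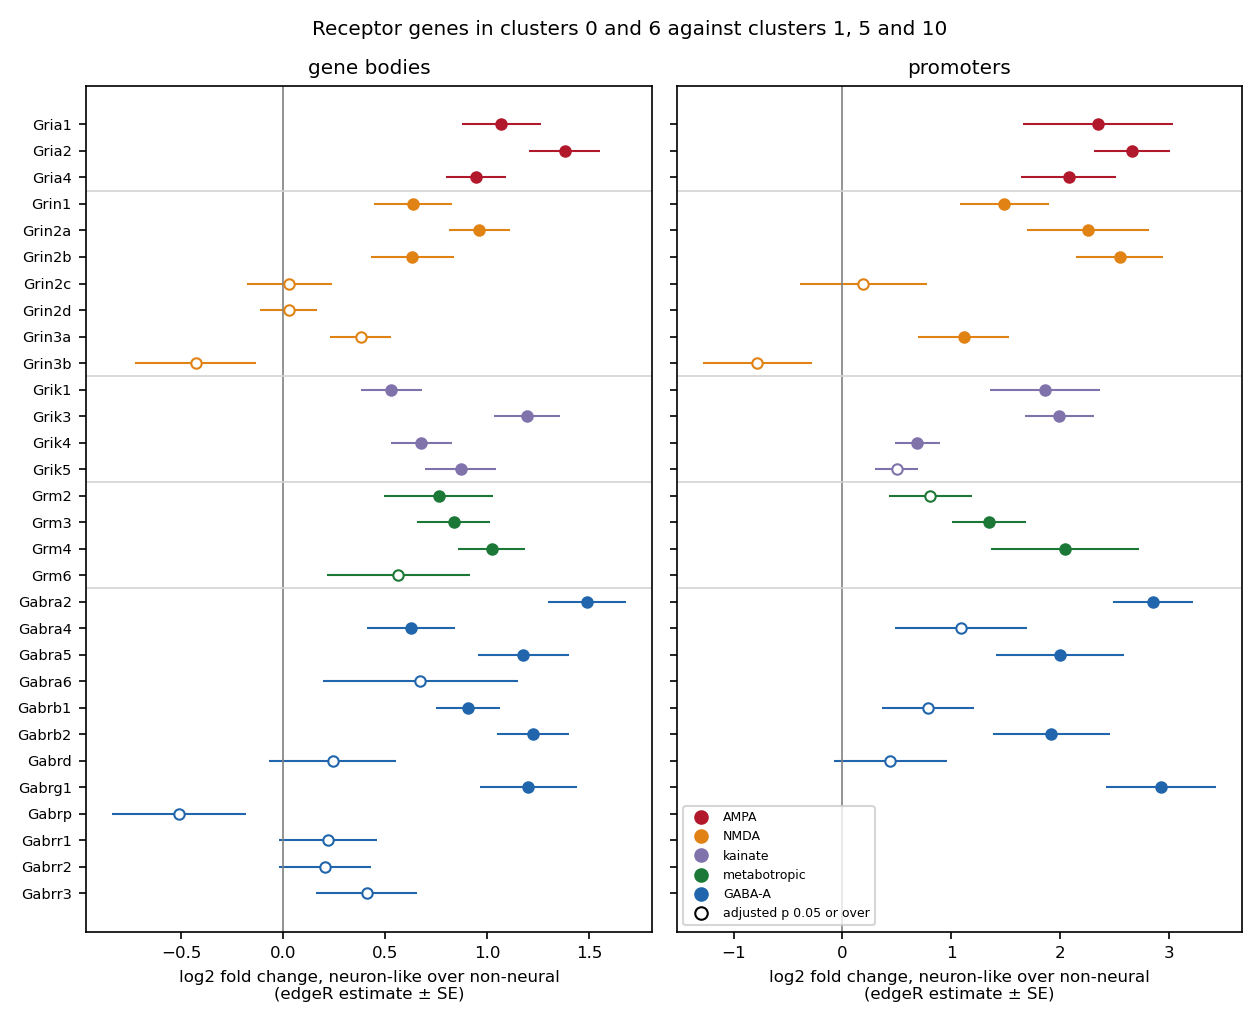
Log2 fold change of neuron-like over non-neural clusters for the receptor genes reported by name at gene bodies (left) and promoters (right). Points are edgeR's estimates, with an SE derived from the F statistic of its test. Filled points have an adjusted p under 0.05 and colours mark the family. All filled points lie to the right of 0, Gabra2 leads at bodies (1.49) and Gabrg1 at promoters (2.93), and promoters without a point did not pass the filter on low counts.

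Around their start sites the members formed a lower peak than the average gene, and the peak differed in height between the cell groups. Within 500 bp of the start, and pooled over all nuclei of the clusters, a member carried on average 0.318 insertions per 50 bp per 1000000 fragments in the neuron-like clusters, 0.240 in cluster 9 and 0.146 in the non-neural clusters. Over the flanks at 1500 to 2000 bp the means were 0.0868, 0.0774 and 0.0532, so the start stood 3.67, 3.11 and 2.75 times above its flank. Over all 21593 genes the same ratios were 7.39, 7.18 and 7.58 and did not follow that order. These pooled values were not tested.

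**Figure D3:**
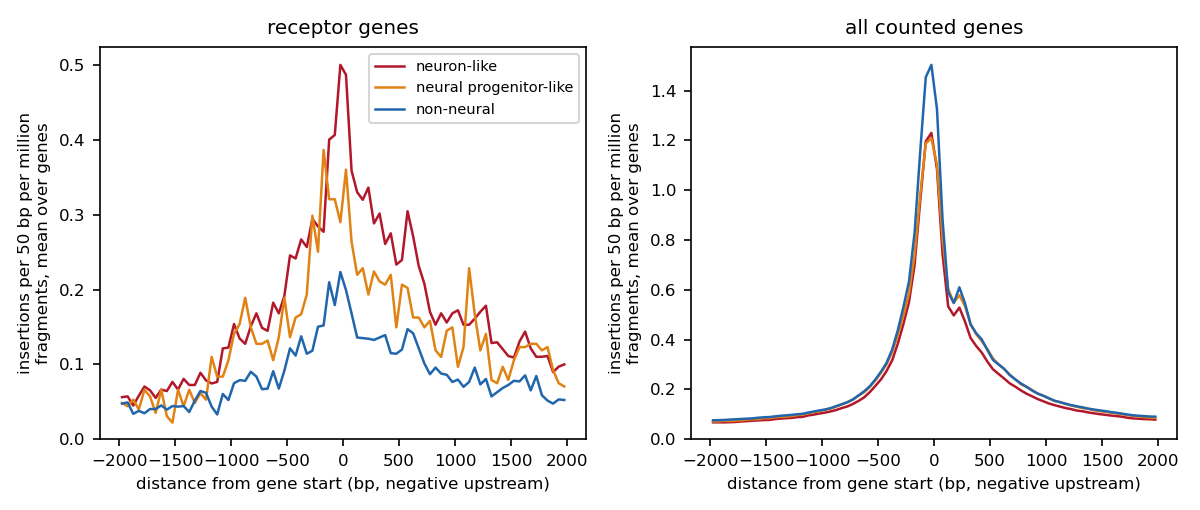
Transposase insertions per 50 bp around annotated starts, scaled by depth and averaged over genes, for the 34 receptor genes (left) and all counted genes (right), in the neuron-like clusters 0 and 6, the progenitor-like cluster 9 and the non-neural clusters 1, 5 and 10. The receptor genes peak near 0.5 in neuron-like nuclei and near 0.2 in non-neural nuclei, whereas over all genes the non-neural line is the highest.

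The promoter stretches of the members were read to see what those with the largest differences have in common. RefSeq promoters (GRCm38.p6) were found for 23 of the 34 members by symbol, and the 250 bases before the start are shown, 5′ to 3′, with CpG dinucleotides in capitals. Gria1, Grin2a, Grin2b, Grin3a, Grik1, Grm4 and Gabrd were among those not matched. The first set holds the 5 matched members with the largest called promoter log2 fold change: Gabrg1 (chr5:70842618-70842867), Gabra2 (chr5:71095850-71096099), Gria2 (chr3:80802836-80803085), Gria4 (chr9:4796235-4796484) and Gabra5 (chr7:57510060-57510309), all on the minus strand.
Gabrg1: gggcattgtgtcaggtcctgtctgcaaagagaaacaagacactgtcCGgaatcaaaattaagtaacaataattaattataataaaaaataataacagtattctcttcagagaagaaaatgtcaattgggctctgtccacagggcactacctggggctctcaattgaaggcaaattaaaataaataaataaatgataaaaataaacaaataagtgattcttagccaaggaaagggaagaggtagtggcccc
Gabra2: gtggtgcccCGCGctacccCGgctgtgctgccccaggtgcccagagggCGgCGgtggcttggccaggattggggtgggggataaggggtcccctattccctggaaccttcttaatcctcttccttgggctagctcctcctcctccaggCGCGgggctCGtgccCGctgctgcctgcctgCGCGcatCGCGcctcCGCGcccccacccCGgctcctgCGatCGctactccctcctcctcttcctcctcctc
Gria2: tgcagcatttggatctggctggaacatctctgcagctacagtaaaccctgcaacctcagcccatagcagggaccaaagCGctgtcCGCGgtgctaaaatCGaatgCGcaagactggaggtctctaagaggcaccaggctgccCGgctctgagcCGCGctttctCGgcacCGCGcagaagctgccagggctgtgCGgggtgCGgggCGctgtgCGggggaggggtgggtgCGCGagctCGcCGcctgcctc
Gria4: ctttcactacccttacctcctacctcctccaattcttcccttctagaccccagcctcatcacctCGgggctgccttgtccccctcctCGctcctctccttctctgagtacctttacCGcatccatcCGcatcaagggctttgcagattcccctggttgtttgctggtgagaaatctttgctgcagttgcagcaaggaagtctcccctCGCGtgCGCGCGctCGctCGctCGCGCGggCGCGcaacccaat
Gabra5: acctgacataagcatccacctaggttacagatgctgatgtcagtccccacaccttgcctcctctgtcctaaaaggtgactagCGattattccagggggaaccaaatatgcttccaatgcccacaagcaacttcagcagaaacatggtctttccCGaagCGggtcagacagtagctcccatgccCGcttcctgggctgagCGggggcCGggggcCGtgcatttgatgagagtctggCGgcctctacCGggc
Among them the number of CpGs ran from 1 in Gabrg1, with 35.6% G and C, to 19 in Gria2, with 64.8%. Gabrg1 and Gabra2, the members with the largest promoter differences in the main settings, thus had 1 and 18 CpGs.

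For comparison, the matched members whose lowest cluster was the most open were Grik5 (chr7:25072370-25072619, minus strand, 8 CpGs) and Grik4 (chr9:42944372-42944621, minus strand, 36 CpGs), with at least 23.9 and 15.2 CPM at the promoter in each of the 9 clusters.
Grik5: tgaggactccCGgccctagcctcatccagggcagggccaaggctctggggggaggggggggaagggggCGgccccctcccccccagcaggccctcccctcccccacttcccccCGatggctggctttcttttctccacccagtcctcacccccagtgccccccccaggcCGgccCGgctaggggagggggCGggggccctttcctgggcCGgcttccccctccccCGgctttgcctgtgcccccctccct
Grik4: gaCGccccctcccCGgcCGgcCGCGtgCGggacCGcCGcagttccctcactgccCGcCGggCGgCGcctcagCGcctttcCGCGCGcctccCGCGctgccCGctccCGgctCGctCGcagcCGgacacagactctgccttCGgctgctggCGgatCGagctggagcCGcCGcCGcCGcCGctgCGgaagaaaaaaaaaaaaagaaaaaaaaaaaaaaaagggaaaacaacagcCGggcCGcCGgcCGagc
The RefSeq starts of Grik5 and Grik4 lay 23 and 122 bp from the annotated ones. Both stretches are rich in G and C (75.2% and 69.6%). The median over the 23 matched members was 9 CpGs, against 10 over the 16317 genes matched in all.

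Short motifs were searched on both strands of these 250 bases. TATAAA was present in 8.70% of the matched members (Grin3b and Gabrb2) and 11.96% of all matched promoters, and the E-box CAGCTG in 4.35% (Gabrp) and 11.8%. GGACAGC, part of the RE1 element that the repressor REST binds, was present in 8.70% (Gria2 and Grm2) and 5.60%. In Gria2 it lay on the opposite strand, its leftmost base 171 bases before the start. These matches are letters in a window and were not tested.

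Apart from the promoters, a single window was read in each gene. For each member the 1 kb window with the most neuron-like fragments at E13.5 was chosen, outside the promoters of all annotated coding transcripts of that member. Promoters of other genes were not left out, and the Gabra4 window overlapped that of Gabrb1. The neuron-like over non-neural ratio was then read at E15.5, a library that had no part in the choice. A choice by neuron-like fragments alone can favour ratios above 1 in any library. The non-neural side pooled fragments without equal weights. At E15.5 clusters 1, 5 and 10 held 3802191, 354431 and 1239933 gene fragments, so cluster 1 weighed most. At E13.5 they held 4995112, 8625628 and 3024563. In 26 of 34 members the ratio at E15.5 exceeded 1, in 15 its exact 95% interval lay above 1, in 2 (Grin2d and Gabrp) below 1, and the median ratio was 2.08. The same choice was not made in other genes, so these counts describe the members and have no background to be read against. At 1 kb all 4 kainate and all 3 AMPA receptor windows had intervals above 1, and none of the 7 NMDA receptor windows did. Choosing windows of 500 bp changed the place read in some genes as well as the size. The kainate receptor windows again had intervals above 1, but that of Grik4 moved from 0.859 to 302 kb from the start. The window of Grin2b moved from 266 to 1.03 kb from the start, with a ratio of 5.07 (2.62 to 10.97), and that of Grin2a from 242 to 1.41 kb, with a ratio of 2.46 (1.38 to 4.67). At overlapping places, the 500 bp intervals of Gria1 (0.956 to 17.9) and Gria4 (0.836 to 34.6) included 1. At E12.5 no interval excluded 1, and a single window had 20 or more neuron-like fragments. The middle of 7 windows lay within 1 kb of a coding transcript start, 2 of them with an interval above 1, Grik4 being one.

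The members named in the next sentences were picked after their window values were seen. Gabrb1 had its window 318 kb into the gene (chr5:71976113-71977112), with 67 neuron-like and 4 non-neural fragments at E15.5, a ratio of 10.5 (interval 3.91 to 39.6). In Grik3 the window lay 54.5 kb from the start (chr4:125544700-125545699) and held 99 against 12 fragments, a ratio of 5.16 (2.83 to 10.3). Its progenitor-like level was 18.0 CPM, above the 11.5 CPM of the neuron-like clusters. The Gria2 window at 1.89 kb (chr3:80800450-80801449) held 60 against 7, a ratio of 5.37 (2.45 to 13.9). Grin2d went the other way at E15.5 at chr7:45865883-45866882, with 118 against 137 fragments and a ratio of 0.539 (0.418 to 0.695). At E13.5, where the window was chosen, the same window held 134 against 209 fragments, a ratio of 1.497 (1.196 to 1.868). Its direction thus differed between these libraries, whose non-neural pools were weighted differently, and the reason was not tested. The RefSeq start of Grin2d lies 11697 bp from the annotated one, inside that window.

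**Figure D4:**
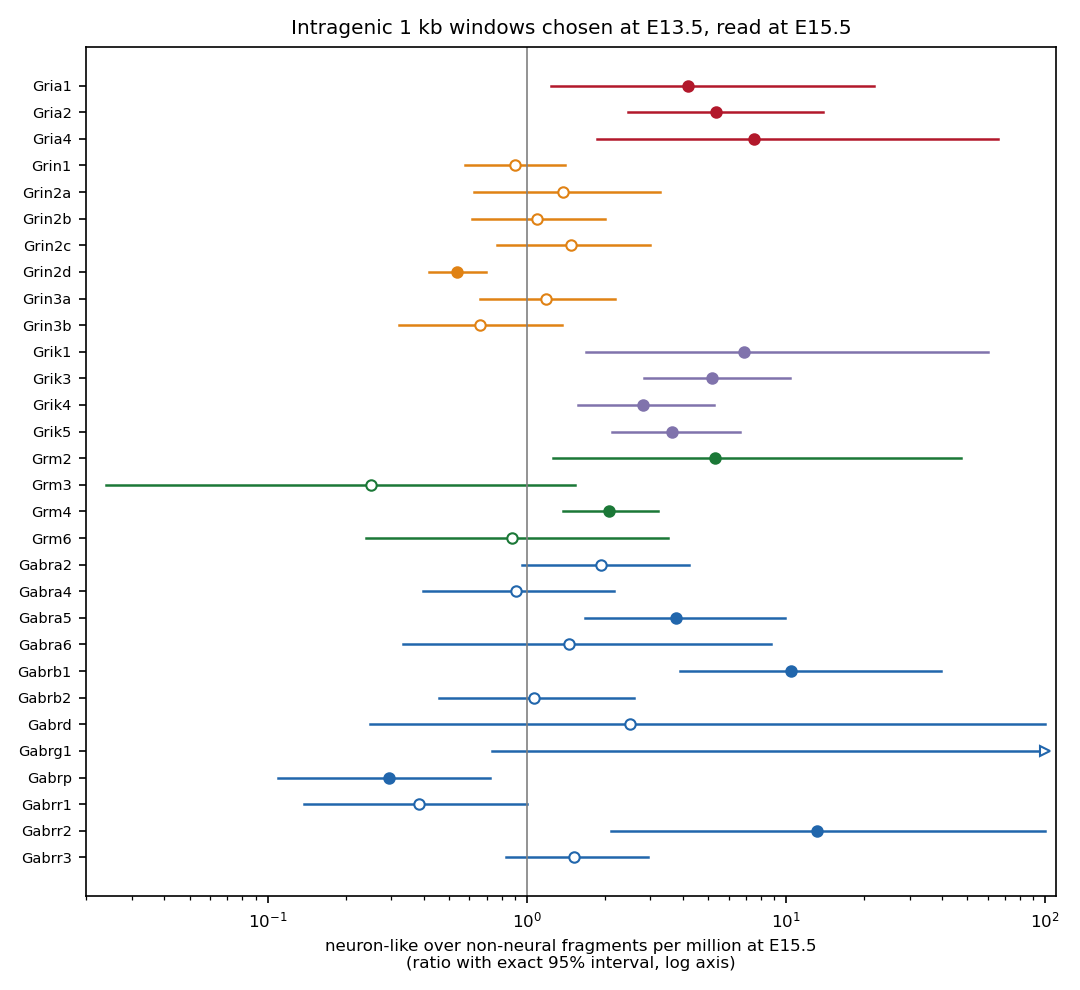
Ratio of neuron-like over non-neural CPM at E15.5 in the intragenic 1 kb window of the receptor genes reported by name, with its exact 95% interval on a log axis that ends at 0.02 and 100; filled points have an interval that excludes 1. The kainate and AMPA receptor windows lie to the right of 1 with intervals above it and the NMDA windows around or left of 1, an AMPA and NMDA split that did not hold when windows of 500 bp were chosen, some of them at other places, and Gabrg1, drawn as an arrow, had 6 neuron-like and 0 non-neural fragments.

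Between the neuron-like clusters, inhibitory neuron-like cluster 0 and excitatory neuron-like cluster 6, no member was called in either direction by edgeR or DESeq2, at bodies or promoters. Across all genes 0.0% of bodies were higher and 0.0365% lower, and 0.00713% of promoters were higher and 0.214% lower. By edgeR, 5 of 34 bodies and 1 of 23 promoters had an unadjusted p under 0.05, against 4.72% of all bodies and 5.81% of all promoters tested. Of the bodies, 28 had a higher estimate in cluster 0, and the median log2 difference was 0.27 against 0.01 over all genes. The share of all genes with a higher estimate was not counted, and the members were not set against genes of like length here. Promoters took 7.77%, 10.1% and 11.8% of the fragments in the cluster 0 sums and 11.5% and 12.8% in those of cluster 6. The part of this in the body estimates was not tested.

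The smallest p among bodies was that of Gabra5, at 86.5, 67.6 and 60.1 CPM in cluster 0 and 31.2 and 47.2 CPM in cluster 6 (log2 difference 0.82 ± 0.34, edgeR adjusted p = 0.90). Gabrr2 was the other way round, with 21.6, 23.6 and 17.9 CPM against 33.5 and 39.9 CPM (-0.82 ± 0.34). Gria4, Gabrp and Grik3 followed, with differences of 0.52 ± 0.23, 1.14 ± 0.52 and 0.52 ± 0.25. For each of these 5 except Gabrr2 the cluster 0 values all lay above those of cluster 6. At the promoters Grin1 came first, with 21.2, 54.1 and 61.7 CPM against 13.2 and 35.03 CPM (1.14 ± 0.57, edgeR adjusted p = 0.83), followed by Gabrg1 (1.03 ± 0.61), Grm4 (1.47 ± 0.88), Grin2c (1.36 ± 0.85) and Grm3 (0.64 ± 0.47). The SEs leave room for differences of more than 2-fold in several of them, so the levels of these genes in the 2 clusters are not shown to be alike.

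Against the neural progenitor-like cluster 9, a single body and a single promoter were called higher in the neuron-like clusters, where 0.505% of all bodies and 0.806% of all promoters were higher and 1.35% and 3.04% lower. The promoter was that of Grik3, with 26.3, 22.8 and 5.09 CPM in cluster 9, below every neuron-like value (2.11 ± 0.49, edgeR adjusted p = 0.0018). These cluster 9 levels rest on few fragments. Even a count of 0 there allows up to 26.3 CPM at E12.5 and 15.3 CPM at E15.5. DESeq2 called the Grik3 promoter too. Leaving out the E13.5 or the E15.5 library ended the Grik3 call, at log2 fold changes of 2.56 and 1.57, and left no body called.

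The other members with the smallest p included Grin1, Gabrb1 and Grik3 at bodies, with log2 fold changes of 0.73 ± 0.27, 0.54 ± 0.21 and 0.51 ± 0.21, none called (edgeR, smallest adjusted p = 0.17). At promoters they were Gabra5 (2.85 ± 1.06), Grin2a (2.19 ± 0.88), Gabrb2 (2.06 ± 0.88) and Grin2c (-1.41 ± 0.68), none called either (edgeR, smallest adjusted p = 0.12). The Gabra5 promoter had 8.76, 0 and 5.09 CPM in cluster 9, where 0 allows up to 6.22 CPM at E13.5. For Grin2c the cluster 9 values of 8.76, 22.8 and 35.6 CPM overlapped the neuron-like ones, which ran from 0 to 20.1 CPM.

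Per kb of span, the levels of the members in the neuron-like clusters formed a wide range, from 2.48 CPM per kb for Grin2d, 2.37 for Grm4, 2.28 for Grik5 and 2.17 for Grin1 down to 0.37 for Gabrg1 and 0.27 for Gabra6, as the mean of clusters 0 and 6. Cluster 0 was the highest of the 10 clusters for 17 members, cluster 3 for 10 and cluster 6 for 3 (Gria2, Gabra2 and Grin2a). The lowest was cluster 11, with a single sum of at least 10 nuclei and no place in the comparisons, for 30 members. Of the erythroid markers 6 of 7 were raised in cluster 11, with Tal1 and Slc4a1 among its leading genes, and 0 of 8 neuron markers. Its nuclei were shallow and 37.5% of their fragments at E13.5 lay at promoters; the part of these in its low body levels was not tested.

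By stage, the neuron-like clusters were compared between E13.5 and E15.5 for members with at least 30 fragments in each, without a test since each stage is 1 library. In cluster 0 the median ratio of E15.5 over E13.5 was 1.03 over 33 members, against 1.00 over all genes. In cluster 6 the median was 1.07 over 29 members, against 1.02 over all genes. Intervals given with these ratios cover counting error only.

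The highest ratios in cluster 0 were those of Grin3b, Gabrb1 and Gria4. Grin3b, a subunit that lowers the calcium flow of NMDA receptors, had 21.6, 10.4 and 25.96 CPM from E12.5 to E15.5, a ratio of 2.49 (1.74 to 3.63), with the E13.5 value the low one. That E13.5 value rested on 38 fragments. Other genes overlap 44.0% of the Grin3b span, so the ratio cannot be given to Grin3b alone. Gabrb1 had 277, 181 and 235 CPM (1.29, 1.18 to 1.42), and Gria4 236, 165 and 209.6 CPM (1.27, 1.15 to 1.40). In these 3 genes the E13.5 level was below both others. The lowest ratios were those of Grm4, with 317, 309 and 228 CPM (0.738, 0.683 to 0.798), Gabrr1, with 33.99, 23.6 and 17.5 CPM (0.738, 0.555 to 0.986), and Grik5, with 145, 200.04 and 148 CPM (0.741, 0.673 to 0.816).

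In cluster 6 the highest ratios were those of Gria2, which had 75.9 CPM at E13.5 and 118 CPM at E15.5 (1.56, 1.29 to 1.87), and Gabra5, with 31.2 and 47.2 CPM (1.51, 1.12 to 2.02). Grin3b had too few fragments there to be counted. The lowest were Gabrr3 with 35.8 and 22.2 CPM (0.620, 0.423 to 0.891), Grm4 with 239 and 178 CPM (0.742, 0.651 to 0.845) and Grin2c with 33.2 and 27.2 CPM (0.818, 0.574 to 1.15). Grm4 was thus lower at E15.5 than at E13.5 in both clusters, and Gabrb1, at 183 and 242 CPM in cluster 6 (1.32, 1.17 to 1.498), higher in both.

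**Figure D5:**
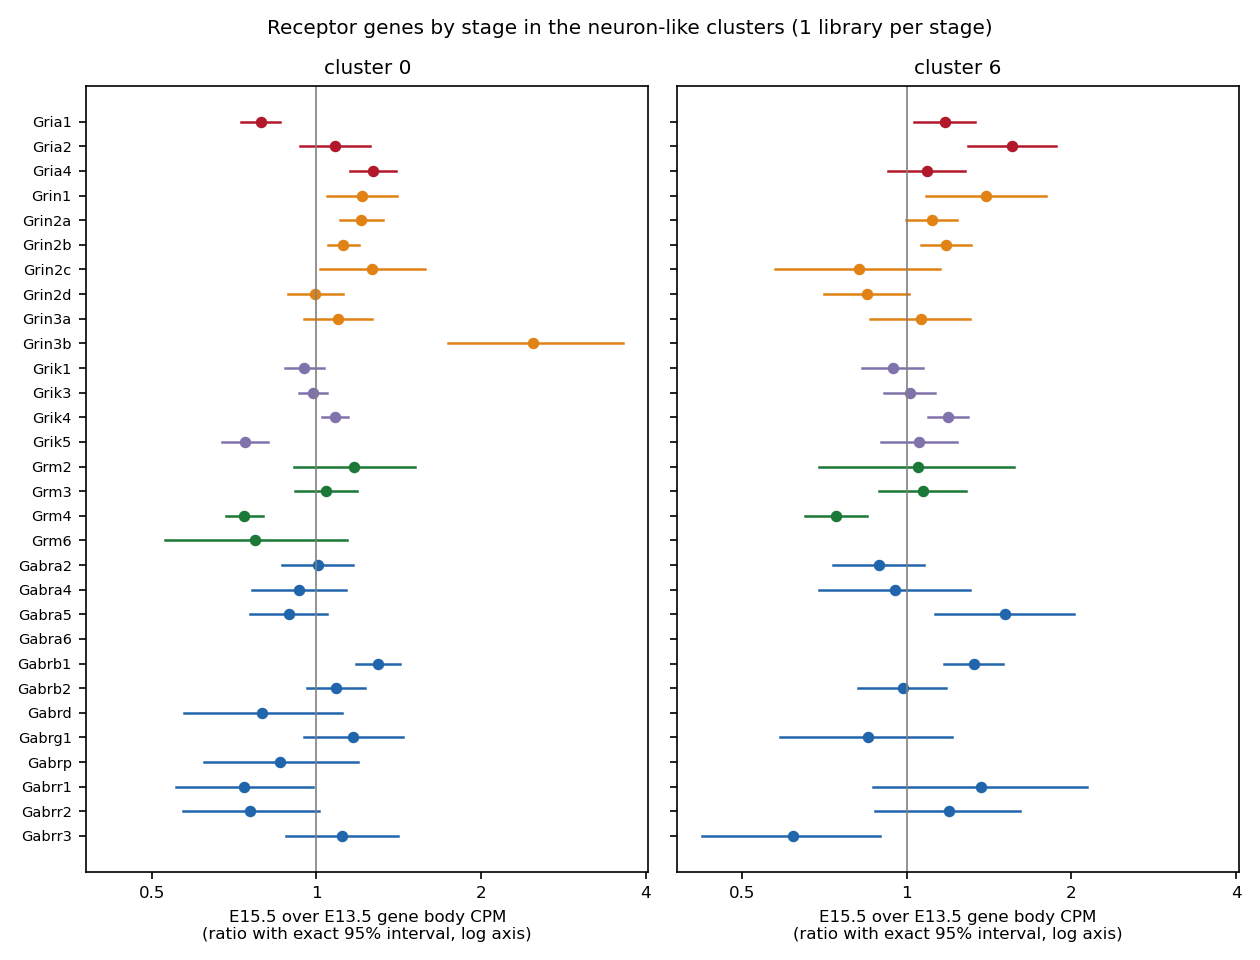
Ratio of E15.5 over E13.5 gene body CPM for the receptor genes reported by name with at least 30 fragments at both stages, in cluster 0 (left) and cluster 6 (right), with the exact 95% interval for counting error on a log axis. Most points lie near 1; Grin3b stands at 2.49 in cluster 0, Gria2 at 1.56 in cluster 6, and Grm4 at 0.738 and 0.742.

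Genes for receptor partners, such as the AMPA receptor auxiliary subunits (Cacng, Cnih, Shisa), scaffolds (Dlg4, Shank, Homer1, Gphn) and the GABA-B receptor subunits (Gabbr1 and Gabbr2), were read from a list of 26, of which 25 were counted and Grip1 was over the span limit. Of the 25 bodies 18 were higher in the neuron-like than the non-neural clusters, and of 22 promoters tested 13, with none lower in either, where 10.4% of all bodies and 13.2% of all promoters tested were higher. The partners were not set against genes of like length. The median log2 fold change of the partner bodies was 0.78. The smallest adjusted p values at bodies were those of Shank2 (1.12 ± 0.15), Shisa7 (1.48 ± 0.21), Cacng4 (1.01 ± 0.16), Shank1 (1.08 ± 0.19), Dlg4 (0.81 ± 0.14) and Cacng3 (0.92 ± 0.17). No partner was called between clusters 0 and 6 or against cluster 9.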

How the data were processed

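snATAC-seq was measured in 3 embryo libraries. Per the file headers, the authors made the fragment files with Cell Ranger ATAC 2.0.0 on mm10, which shifts ends to the insertion and lists each duplicate group once. The deposited counts beside the fragments are supporting read pairs, and those in the cell table are fragments per nucleus; each unique fragment was counted once here. Of the columns describing nuclei, 20 were not used. Per the methods, nuclei were integrated with spatial profiles before clustering (Signac 1.6.0 and Seurat 4.1.0 in the processing notes); whether the numbers in the cell table are those clusters is not stated.

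Unique fragments overlapping each of 21593 genes (GENCODE vM21, body plus 2 kb upstream, at most 500 kb, Pcdh and Ugt clusters left out) or its promoter were summed per cluster and library, with at least 10 nuclei per sum. Overlapping genes share fragments, and strand plays no part. edgeR 4.0.16 (TMM, filterByExpr, robust quasi-likelihood test, library as a block) was fitted to all genes, with Benjamini-Hochberg adjustment over all genes tested and a threshold of 0.05. That test gives no SE. The SE beside each edgeR estimate is the absolute log2 fold change divided by the square root of the test's F statistic. The contrasts were the mean of clusters 0 and 6 against that of 1, 5 and 10, cluster 0 against 6, and 0 and 6 against 9. The test was checked on simulated counts. Ratios of counts carry exact 95% intervals. DESeq2 1.42.0, other scalings, filters, windows and references, single libraries left out, linked barcodes (37 nuclei) and thinning to 10000 gene fragments were tried; library totals without TMM and promoters at any coding start were added after the data were seen. No doublet caller was run; leaving out the deepest 10% of nuclei per library stood in for it.

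Named were, per contrast and readout, the called members with the largest change (at most 10), or the 5 with the smallest p where fewer were called, the 3 highest and lowest stage ratios per cluster, and 6 partners; some members that meet the rule are not reported here by name or drawn singly, though all counts and medians include them. The members and lists were chosen with earlier results of these data known. Nothing says that nuclei of a library came from separate embryos, so p-values measure the spread between these sums.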

Additional observations from a re-analysis of the deposited data

Results flagged for a closer look

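Among the 36 groups of sums looked at for the named members, 3 held a sum far from the others by Dixon's criterion, which chance alone flags in about 1 of 20 groups. At the Gria1 promoter the E12.5 sum of cluster 0 held 42.4 CPM from 4 fragments, the next 16.0 CPM. At the Grik3 promoter the E13.5 sum of cluster 0 held 97.4 CPM, the next 70.1 CPM. Among the non-neural sums of the Gabrg1 body, cluster 1 at E12.5 stood out at 29.0 CPM from 10 nuclei.

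Between E13.5 and E15.5, Gria1 had counting intervals on opposite sides of 1 in the neuron-like clusters. Its ratio was 0.791 in cluster 0 and 1.17 in cluster 6. With 1 library per stage this difference was not tested.

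Outside the comparisons, the 5 nuclei of cluster 6 at E12.5 held 3249 CPM over the bodies of the 34 members together (interval 3039 to 3470, 886 fragments). This was above the highest non-neural sum of 2780 CPM but below the lowest neuron-like sum of 3630 CPM. It was within the progenitor-like range of 3052 to 3634 CPM. The 6 nuclei of the unnamed cluster 7 at E12.5 held 2948 CPM (interval 2737 to 3170).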

How the results depend on the processing

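The number of receptor genes called by edgeR depended most on the E13.5 library, on promoter depth and on the reference. Leaving out each library in turn gave 15 to 22 of the 34 bodies higher in the neuron-like clusters (23 with all libraries) and 5 to 16 promoters (16 with all), the lowest in each case without E13.5; without E15.5 there were 9 promoters. Against cluster 1 alone 13 bodies and 8 promoters were called, and with nuclei thinned to one depth 2 promoters, of 5 that still passed the filter. Against the progenitor-like cluster, leave-one-out counts ran from 0 to 1 at bodies and at promoters. Thinning left 0 at bodies and 0 at promoters, and a promoter window of 1000 bp on either side gave 2, adding Gabra5 at a log2 fold change of 1.97. Without the deepest nuclei the single body called against progenitors was Gria1, which was not called with all nuclei. DESeq2, other size factors, no filter, 1 barcode per linked group and, chosen after seeing the data, library totals alone and promoters at any coding start kept all these counts within 1.5-fold, and no setting called a member between clusters 0 and 6. Among the called members with the largest changes, at most 10 per contrast and readout, none changed sign. The other called members, the Grik4 promoter among them, were not checked for this. The median stage ratio in cluster 0 was 1.06 when scaled to all fragments. With windows chosen at 500 bp, in some genes at another place, 1 member had an interval below 1 at E15.5 and 14 above, but not the same members: Grin2a, Grin2b and Gabra2 came in, and Gria1, Gria4 and Grm2 were among those that dropped out. The cluster comparisons were paired by library, which was a block in each fit, and the stages, with 1 library each, have no pairs. E12.5 promoter sums are too shallow to show closure of a single gene.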
